A study of Drosophila melanogaster with 3 samples.

Results

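Genes of glial identity and of transmitter uptake were followed through single-cell RNA-seq libraries made from GFP-sorted cells of the adult Drosophila brain. The set held repo, nrv2, Gat, alrm, Eaat1, Gs2, axo, wrapper, moody and e, genes with known roles in fly glia, found in the matrices by symbol. All 10 were among the 17824 genes of the matrices. Because the sort was aimed at Kenyon cells, the intrinsic neurons of the mushroom body, the question here was where the transcripts of these genes lay: in the cells without neuronal RNA that came through the sort, in Kenyon cells, or in other neurons.

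The study examined flies without a working serotonin transporter (dSERT), or fed a blocker of it, and each of its 3 libraries was a pool of genotypes or treatments. The first pool came from flies of day 4 to 6 after eclosion and combined dSERT-TMKO with WT flies, together with WT flies fed citalopram (CIT) or vehicle (VEH). The second came from day 0 flies and combined dSERT-TMKO with WT. The third, also of day 0, combined dSERT16 with dSERT4. dSERT-TMKO is a CRISPR deletion of most of the first transmembrane domains, outcrossed to w1118. dSERT16 is an imprecise P-element excision that removed the 5′ end of the gene, and dSERT4, its background-matched control, carries a small deletion of its own. Citalopram is a selective serotonin reuptake inhibitor. All flies carried Mef2(P247)-gal4 and UAS-nls.GFP, so the sorted cells were defined by a driver of mushroom body neurons and not by one of glia. The optic lobes had been removed. The flies fed citalopram or vehicle were females, and the paper does not state the sex of the others in these libraries. Biological replicates carried autosomes from different wild strains. No map from cells to genotype, strain or drug was used here, so each library counted as 1 sample, the pools have no replicate check, and no comparison of mutant with control, or of drug with vehicle, was made. Age, allele, genetic background and sort cannot be told apart between the pools.

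Glia of the fly brain insulate neurons, take up transmitter from the neuropil and form the blood-brain barrier. Astrocyte-like glia send fine processes into the neuropil and carry the transporters for GABA and glutamate, and the glutamate they take up is turned into glutamine by glutamine synthetase. Ensheathing glia wrap neuropil and axon tracts, cortex glia wrap neuronal cell bodies, and surface glia seal the brain from the hemolymph.

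The deposited libraries held 3089, 9404 and 3544 barcodes and 21831009, 61833329 and 13183480 unique molecular identifiers (UMIs, each 1 captured transcript) in the day 4 to 6 pool, the dSERT-TMKO/WT day 0 pool and the dSERT16/dSERT4 day 0 pool. After removal of shallow cells, cells rich in mitochondrial RNA and predicted doublets, 2970, 8523 and 3294 cells remained, with medians of 7127.5, 6389 and 3329 UMIs per cell. The pools shared 1 to 11 barcodes pairwise. A cell was called non-neuronal when 7 pan-neuronal genes together gave under 2000 CPM in it (CPM, the UMIs of a gene per 1000000 UMIs). Neurons were called Kenyon-like when their cluster had at least 4 of 6 Kenyon cell markers, and were otherwise called other neurons. None of the 10 genes entered the clustering or the classes. The marking of doublets, however, was run on all genes, these 10 included. The call was rarely close: 2, 53 and 17 cells lay between 1000 and 4000 CPM. The dSERT transcript itself had 0 UMIs in the day 4 to 6 pool, 1 UMI in the dSERT16/dSERT4 day 0 pool, and 57, 2 and 102 UMIs in non-neuronal cells, Kenyon-like cells and other neurons of the dSERT-TMKO/WT day 0 pool. With the genotypes pooled, the mutations could not be checked from it.

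The pools differed widely in how many non-neuronal cells they held. These cells numbered 18 of 2970 in the day 4 to 6 pool, 0.606% (95% exact Clopper-Pearson interval 0.360 to 0.956%). In the dSERT-TMKO/WT day 0 pool they numbered 5982 of 8523, 70.2% (69.2 to 71.2%). In the dSERT16/dSERT4 day 0 pool they numbered 158 of 3294, 4.80% (4.09 to 5.58%). The shares depend on the sort gate and are not shares of cells in the brain, and all intervals given here cover counting error only. The non-neuronal cells carried RNA of glia: 12 glial markers that do not include the 10 genes summed to 22958, 46221 and 55891 CPM in them, against 73.9, 1393 and 535 CPM in Kenyon-like cells. The sums rest largely on Obp44a, which gave 14386 CPM of the first. It ran from 1619 to 189473 CPM and from 5166 to 75454 CPM over the non-neuronal clusters of the day 0 pools. Mdr65, Gli and Tret1-1 had no UMI in the day 4 to 6 cells, where 7 of the 12 markers were detected. Markers of other cell types were at lower levels, though some were also higher in these cells than in Kenyon-like cells. Over 4 fat body genes the non-neuronal cells had 1378, 824 and 1714 CPM against 4.66, 15.4 and 7.29 CPM, and over 5 photoreceptor genes 742, 363 and 557 CPM against 217, 186 and 204 CPM. Over 6 hemocyte genes they had 182, 76.5 and 116 CPM against 255, 232 and 404 CPM, and over 5 muscle genes 0, 1.98 and 3.15 CPM against 0.865, 0.399 and 0.439 CPM. The part of such RNA in the results was not tested. Mef2, whose driver marked the sorted cells, stood at 197, 117 and 184 CPM in non-neuronal cells, against 1428, 1434 and 1583 CPM in Kenyon-like cells.

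The 10 genes together were concentrated in the non-neuronal cells of every pool. Their summed level was 23518 CPM (95% exact Poisson interval 22363 to 24717) in the non-neuronal cells of the day 4 to 6 pool, against 78.3 CPM in its Kenyon-like cells. It was 39557 CPM (39493 to 39621) against 771 CPM in the dSERT-TMKO/WT day 0 pool, and 24140 CPM (23760 to 24526) against 205 CPM in the dSERT16/dSERT4 day 0 pool. In other neurons it was 28.8, 1542 and 363 CPM. Since the pools held so different numbers of non-neuronal cells, these cells accounted for 48.6%, 98.6% and 85.2% of all UMIs of the 10 genes. At least 1 of the genes was seen in nearly every non-neuronal cell, and 18 of 18, 5842 of 5982 and 146 of 158 of them gave 5000 CPM or more over the set.

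**Figure D1:**
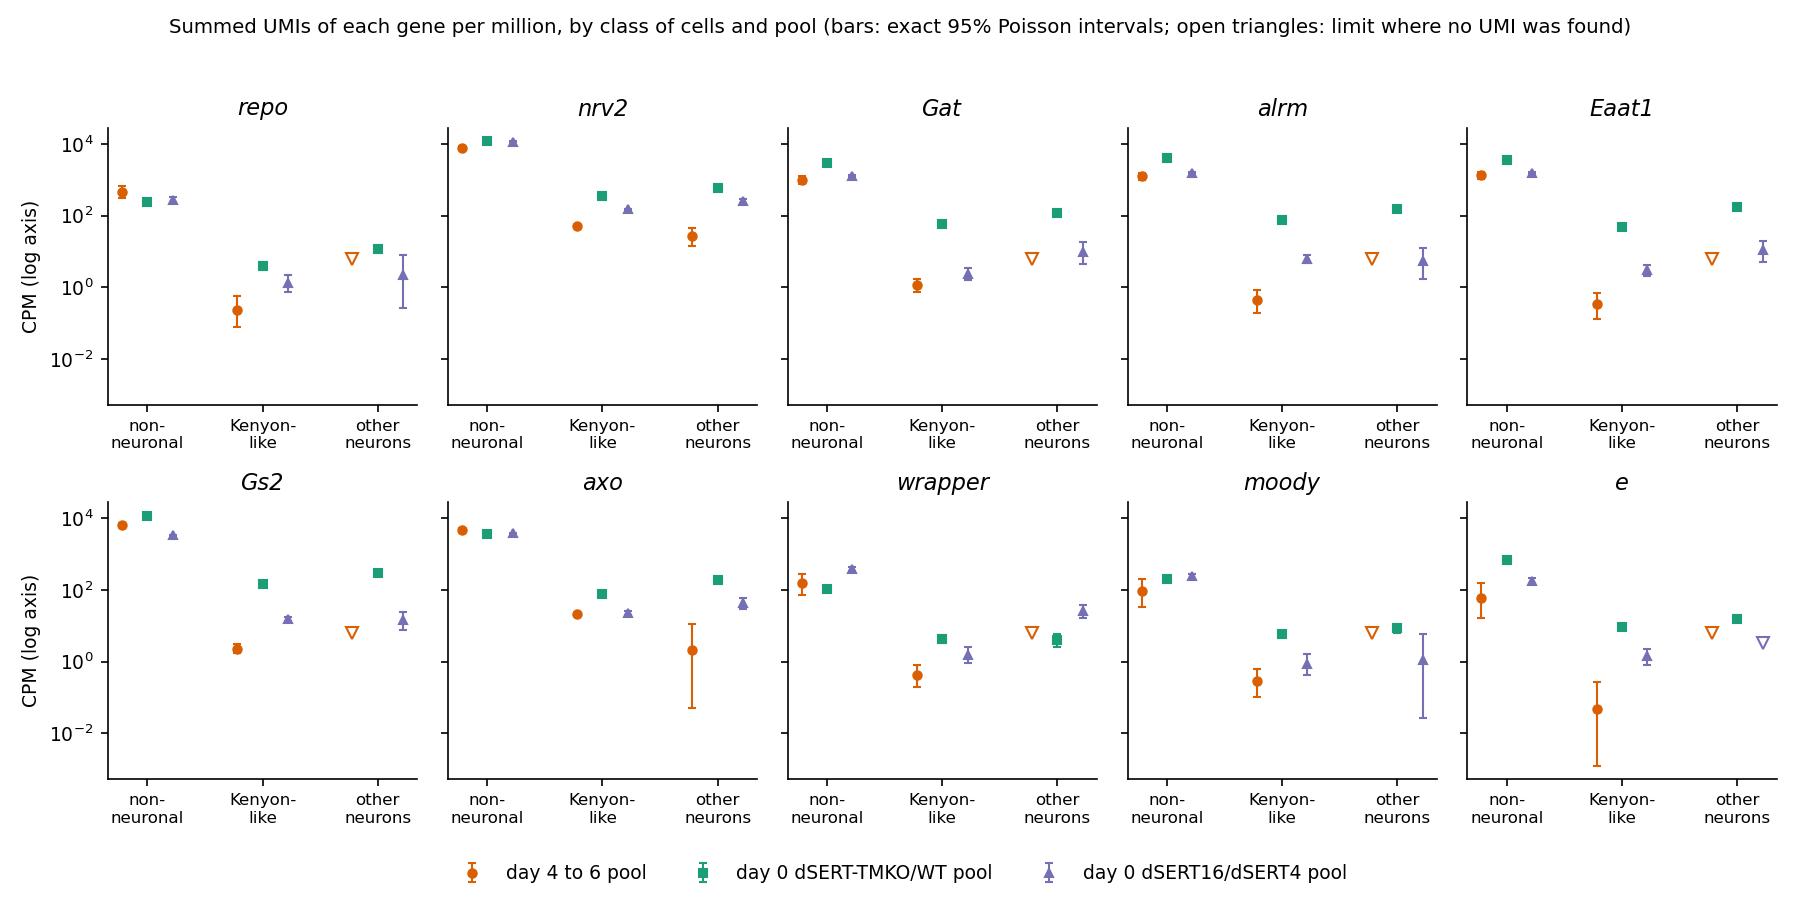
Level of each of the 10 genes (CPM, log axis) in non-neuronal cells, Kenyon-like cells and other neurons of the 3 pools, with 95% exact Poisson intervals that cover counting error only and open triangles at the limit where no UMI was found. The non-neuronal points lie above the Kenyon-like points of the same pool for every gene, from 24.8-fold for wrapper in the dSERT-TMKO/WT day 0 pool to 3962-fold for Eaat1 in the day 4 to 6 pool.

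Taken gene by gene, non-neuronal cells were compared with Kenyon-like cells of the same library, and a difference of at least 4-fold was counted among genes with at least 10 UMIs in the 2 classes together. In the day 4 to 6 pool, 9 of the 9 genes that had enough UMIs were higher in non-neuronal cells, where 11.4% of all 7962 genes were, and e was not counted for lack of UMIs. In the dSERT-TMKO/WT day 0 pool 10 of 10 were higher, where 18.5% of 9152 genes were, and in the dSERT16/dSERT4 day 0 pool 10 of 10 were higher, where 15.7% of 7929 genes were. None of the 10 was at least 4-fold lower in any pool, where 5.59%, 17.0% and 12.8% of all genes were. With 1 library per pool these are descriptions of the libraries, and no test was run. The UMIs counted here mark the 3′ ends of transcripts and were not scaled by transcript length, so levels are compared between cells for a given gene and not between genes.

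The identity gene of the set is repo, which encodes a homeodomain protein present in nearly all glia of the fly. It had 469 CPM in non-neuronal cells of the day 4 to 6 pool, 243 CPM in those of the dSERT-TMKO/WT day 0 pool and 279 CPM in those of the dSERT16/dSERT4 day 0 pool, from 31, 8974 and 177 UMIs. In Kenyon-like cells it had 0.240, 3.99 and 1.32 CPM. The day 4 to 6 value is the highest of the 3, with an interval of 319 to 666 CPM that does not reach the day 0 dSERT-TMKO/WT value and just meets that of the dSERT16/dSERT4 day 0 pool (239 to 323 CPM). repo was caught in only some of the cells. A UMI was found in 61.1%, 68.0% and 52.5% of non-neuronal cells, and in 44.4%, 20.6% and 21.5% once every cell had been thinned to 1000 UMIs. In Kenyon-like cells the thinned shares were 0.0344%, 0.599% and 0.131%.

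nrv2, which encodes a β subunit of the Na+/K+ pump and whose promoter is widely used to drive expression in glia, was the gene found in most non-neuronal cells. After thinning to 1000 UMIs it was present in 94.4%, 98.1% and 94.9% of them, against 4.16%, 26.5% and 14.8% of Kenyon-like cells, and the unthinned shares were 94.4%, 99.3% and 96.2% against 25.2%, 83.2% and 39.1%. Its level was 7844, 12363 and 11519 CPM in non-neuronal cells, against 51.9, 343 and 150 CPM in Kenyon-like cells, a fold difference of 151 (95% interval 136 to 168), 36.1 (35.1 to 37.1) and 76.6 (72.7 to 80.8). Other subunits of the pump were not all divided in this way. nrv1 went with nrv2 in both day 0 pools, at a low level. It had 11.5 and 75.6 CPM in non-neuronal cells there, against 1.60 and 1.58 CPM in Kenyon-like cells. In the day 4 to 6 pool nrv1 had 0 against 1.01 CPM. The catalytic α subunit gene Atpalpha stayed within 4-fold, at 8041, 13844 and 12923 CPM in non-neuronal cells and 4190, 5261 and 6209 CPM in Kenyon-like cells. nrv3, the β subunit of neurons, ran the other way to nrv2, with 30.3, 81.8 and 165 CPM in non-neuronal cells against 5079, 6453 and 7249 CPM in Kenyon-like cells. The sodium/calcium exchanger gene Nckx30C was also at least 4-fold lower in non-neuronal cells of every pool, with 0, 2.90 and 15.7 CPM against 876, 662 and 984 CPM.

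The uptake genes proper are Gat, which encodes the GABA transporter, and Eaat1, which encodes the glutamate transporter. Gat had 969, 2882 and 1300 CPM in non-neuronal cells against 1.15, 57.9 and 2.37 CPM in Kenyon-like cells. Eaat1 had 1333, 3539 and 1585 CPM in non-neuronal cells against 0.336, 46.9 and 2.98 CPM in Kenyon-like cells. Both genes were thus highest in the non-neuronal cells of the dSERT-TMKO/WT day 0 pool, and both were also highest in the Kenyon-like cells of that pool. In the other neurons of the day 4 to 6 pool neither gene had a UMI, and 3 counts over the class gave a limit of 6.18 CPM. The non-neuronal level was 157-fold this limit for Gat and 216-fold for Eaat1. These folds leave out the counting error of the non-neuronal level.

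Gs2, a glutamine synthetase gene, and alrm, which encodes a leucine-rich repeat protein used as a marker of astrocyte-like glia, followed the same division. Gs2 had 6618, 11782 and 3299 CPM in non-neuronal cells, against 2.31, 148 and 15.5 CPM in Kenyon-like cells. It was present in 83.3%, 93.1% and 60.1% of non-neuronal cells thinned to 1000 UMIs, against 0.240%, 11.1% and 1.91% of Kenyon-like cells. alrm had 1272, 4038 and 1595 CPM in non-neuronal cells, against 0.432, 76.8 and 6.23 CPM in Kenyon-like cells. It was seen in fewer cells than Gs2, 27.8%, 54.4% and 21.5% of the thinned non-neuronal cells.

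axo encodes axotactin, a neurexin-related protein that glia make and release onto axons. Its level in non-neuronal cells varied least between the pools, at 4710, 3737 and 3768 CPM, against 21.2, 75.3 and 22.1 CPM in Kenyon-like cells. The counting intervals of the day 0 values overlap (3718 to 3757 and 3619 to 3922 CPM), and that of the day 4 to 6 value (4201 to 5263 CPM) lies above both. wrapper encodes an immunoglobulin-domain membrane protein of glia that enwrap neurons and axons. It had 151, 109 and 375 CPM in non-neuronal cells, from 10, 4028 and 238 UMIs, against 0.432, 4.39 and 1.58 CPM in Kenyon-like cells. moody encodes a G protein-coupled receptor that the surface glia need for a tight blood-brain barrier. It had 90.9, 198 and 244 CPM in non-neuronal cells against 0.288, 5.73 and 0.878 CPM in Kenyon-like cells, and only 6 UMIs stood behind the day 4 to 6 value.

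e (ebony) encodes the enzyme that joins β-alanine to dopamine or histamine and so takes these amines out of use. It had 60.6 CPM in the non-neuronal cells of the day 4 to 6 pool, 665.5 CPM in those of the dSERT-TMKO/WT day 0 pool and 176 CPM in those of the dSERT16/dSERT4 day 0 pool. The day 4 to 6 value comes from 4 UMIs in a single cell, and 43 of the 112 UMIs of the dSERT16/dSERT4 day 0 pool came from 1 cell. In Kenyon-like cells e had 0.0481, 9.39 and 1.40 CPM. The other neurons of the dSERT16/dSERT4 day 0 pool had no e UMI, and 3 counts over the class gave a limit of 3.26 CPM.

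The non-neuronal cells were not uniform, and the 10 genes divided them. Clustered without these genes, the non-neuronal cells of the dSERT-TMKO/WT day 0 pool fell into 9 clusters, named here by their 2 leading genes, each with 5 to 9 of the 12 glial markers. In the largest, led by wun2 and Act79B with 1756 cells, the uptake genes stood together. There Gat had 7983 CPM, Eaat1 9873 CPM, alrm 11025 CPM and Gs2 28004 CPM. Over the other 8 clusters Gat ranged over 159 to 654 CPM, Eaat1 over 192 to 989 CPM, alrm over 181 to 2193 CPM and Gs2 over 697 to 5684 CPM. The amine-conjugating gene e was split still more sharply, with 2052 CPM (2026 to 2078) in the wun2/Act79B cluster and 15.9 to 119 CPM in the other 8. After thinning, 98.6% of the cells of the wun2/Act79B cluster had a Gat UMI, 99.9% an Eaat1 UMI and 77.6% an e UMI. e, Eaat1 and Gat were among the 10 leading genes of this cluster although they had been left out of the clustering.

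axo and moody were low where the uptake genes were high. axo had 217 CPM in the wun2/Act79B cluster, 7008 CPM in the CG11159/Ect3 cluster of 1063 cells and 7038 CPM in the CG9377/CG16743 cluster of 916 cells. The clusters led by scro and cv-2 (766 cells) and by Hf and MFS9 (609 cells) had 4871 and 4791 CPM of axo, and the yellow-b/CG4250 cluster of 542 cells had 1998 CPM. moody had 13.8 CPM (11.7 to 16.1) in the wun2/Act79B cluster and was highest in the scro/cv-2 cluster, at 491 CPM (471 to 511). The same 5 clusters carried zyd, a gene of cortex glia, at 1044 to 1817 CPM, where the wun2/Act79B cluster had 120 CPM. Cyp4g15, the other cortex glia gene among the markers, ran the other way. It had 268 to 419 CPM in these 5 clusters and 1108 CPM in the wun2/Act79B cluster, so the markers do not name these clusters. Mdr65 and Gli, which mark the barrier-forming surface glia, were at or near 0 in the clusters with most moody, with Mdr65 at 0.419 CPM and Gli at 0.209 CPM in the scro/cv-2 cluster. moody was thus highest in clusters that lacked Mdr65, a marker of the layer for which the gene is known. Gli was at most 9.53 CPM in any of the 9 clusters, so it does not tell them apart.

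wrapper picked out a further pair of clusters. It had 1983 CPM (1894 to 2075) in the Nplp3/CG7203 cluster of 126 cells and 1496 CPM (1369 to 1630) in the Obp99a/CG3270 cluster of 73 cells, and 2.64 to 94.2 CPM in the other 7. Both clusters had little of the uptake machinery, with 485 and 383 CPM of Gat and 697 and 809 CPM of Gs2. They held zyd at 2916 and 1359 CPM and Cyp4g15 at 542 and 412 CPM.

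The CG4797/CG6910 cluster of 124 cells had the least nrv2, Gat, axo and wrapper of the 9. nrv2, which had 6730 to 17299 CPM in the other 8 clusters, was at 929 CPM there, axo at 176 CPM and wrapper at 2.64 CPM, from 2 UMIs. Eaat1 was 989 CPM there, the highest outside the wun2/Act79B cluster. This cluster held the perineurial glia genes Tret1-1, vkg and Col4a1 at 1860, 2269 and 5509 CPM and the subperineurial gene Mdr65 at 656 CPM, while moody was 104 CPM. repo was the most even gene of the set, from 139 CPM in the Obp99a/CG3270 cluster to 266 CPM in the CG11159/Ect3 cluster.

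**Figure D2:**
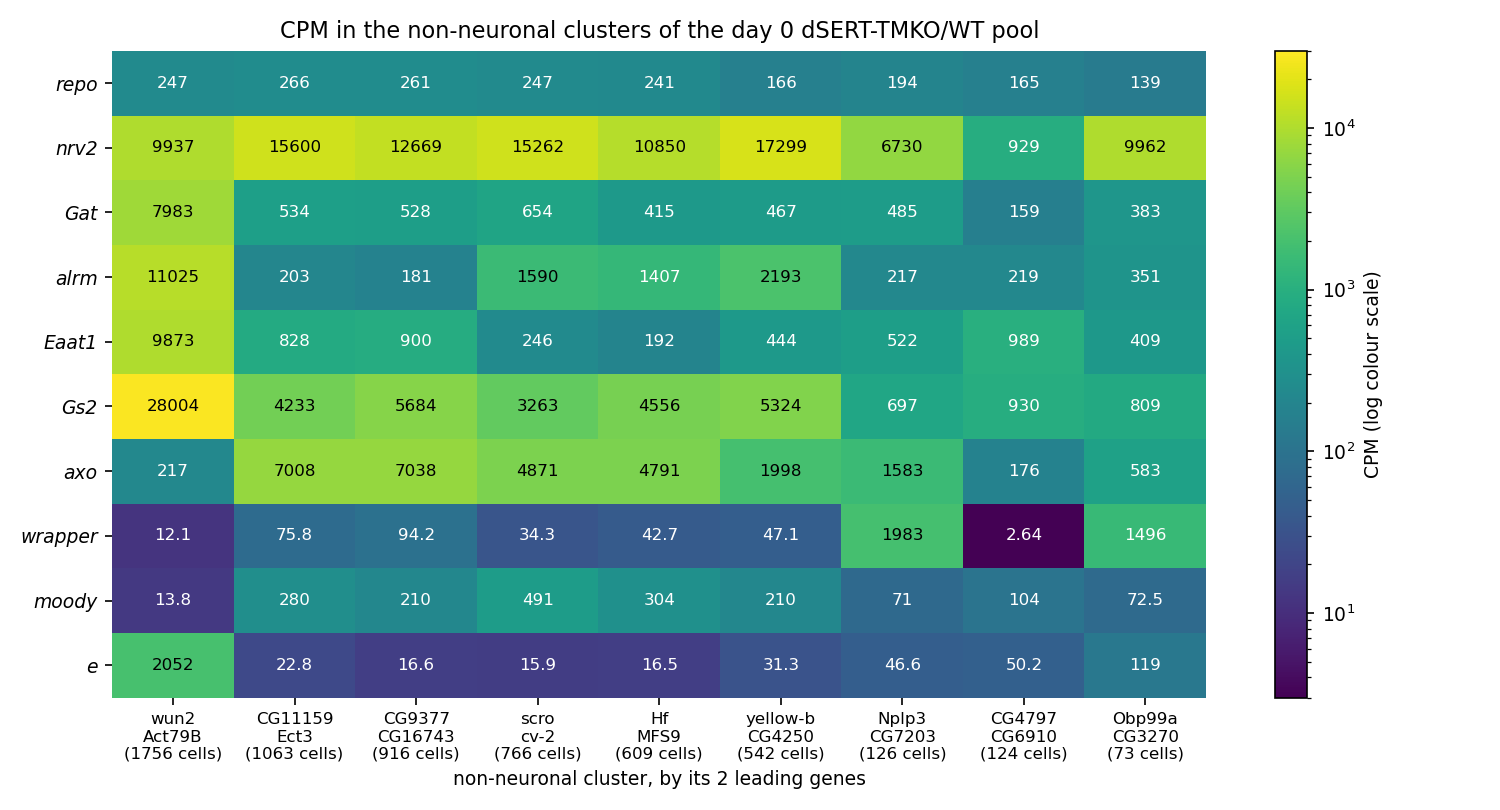
Level of each of the 10 genes (rows; CPM printed in the cells, log colour scale) in the 9 non-neuronal clusters of the dSERT-TMKO/WT day 0 pool (columns, named by their 2 leading genes with the number of cells). The uptake genes and e are highest in the wun2/Act79B cluster, axo in the CG11159/Ect3 and CG9377/CG16743 clusters and wrapper in the Nplp3/CG7203 and Obp99a/CG3270 clusters, while repo stays between 139 and 266 CPM.

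The smaller set of non-neuronal cells in the dSERT16/dSERT4 day 0 pool was divided along similar lines. A cluster of 16 cells led by CG43693 and wun2 had 11438 CPM of Gat, 13099 CPM of Eaat1, 16542 CPM of alrm, 18346 CPM of Gs2 and 1209 CPM of e, and no moody UMI. A cluster of 72 cells led by trol and CG7084 had 5845 CPM of axo, 16088 CPM of nrv2 and 406 CPM of moody. The third, of 70 cells led by CG1124 and asRNA:CR45131, had 811 CPM of wrapper, 1733 CPM of axo and 6156 CPM of nrv2. The 18 non-neuronal cells of the day 4 to 6 pool did not form a cluster of their own and sat in a cluster of Kenyon-like cells led by rn and CG43795.

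Single cells showed the same partition as the clusters. In the non-neuronal cells of the dSERT-TMKO/WT day 0 pool, thinned to 1000 UMIs, 96.8% of the cells with an e UMI also had Eaat1, 96.2% had alrm and 95.5% had Gat. Among cells without e these shares were 43.0%, 40.8% and 41.6%. axo ran the other way: it was found in 22.2% of the cells with e and in 85.3% of those without. moody went with axo, which was found in 93.4% of the cells with moody and in 65.1% of those without, and wrapper was set apart from alrm, which was found in 28.0% of the cells with wrapper and in 56.4% of those without. repo made little difference to any of the others, for example with Gat in 56.8% of the cells with repo and 54.4% of those without. A thinned non-neuronal cell held a median of 4, 5 and 4 of the 10 genes in the 3 pools. These shares come from cells of 1 library each and are descriptions.

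The pools were then compared within like cells, since their non-neuronal cells came from different clusters. Each non-neuronal cell was matched to the cluster of the dSERT-TMKO/WT day 0 pool whose profile over 500 other genes it resembled most. This returned 5550 of 5975 cells of that pool itself, 92.9%, to their own cluster. The match was poorer for the pair of clusters rich in wrapper. Only 53 cells of that pool matched the Nplp3/CG7203 cluster, which held 126 cells. The Obp99a/CG3270 cluster, which held 73 cells, was matched by 140. Of the 18 cells of the day 4 to 6 pool, 6 went to the CG9377/CG16743 cluster, 5 to the yellow-b/CG4250 cluster and 2 to the wun2/Act79B cluster. The 158 cells of the dSERT16/dSERT4 day 0 pool went most often to the Obp99a/CG3270 cluster (37 cells), the CG11159/Ect3 cluster (35 cells) and the Nplp3/CG7203 cluster (27 cells), and 16 went to the wun2/Act79B cluster.

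In the wun2/Act79B cells, where the uptake genes were highest, the levels lay closer between the day 0 pools than they did over all non-neuronal cells, with few cells behind the values of the smaller pools. In cells matched to the wun2/Act79B cluster, Eaat1 had 9611 CPM in the day 4 to 6 pool (2 cells), 9877 CPM in the dSERT-TMKO/WT day 0 pool (1757 cells) and 13099 CPM in the dSERT16/dSERT4 day 0 pool (16 cells). Gat had 8149, 7993 and 11438 CPM in these cells, and alrm 12537, 11033 and 16542 CPM. Gs2 had 28416, 27983 and 18346 CPM and e 836, 2054 and 1209 CPM. Over all non-neuronal cells Gs2 was 3.57-fold and e 3.77-fold higher in the dSERT-TMKO/WT day 0 pool than in the dSERT16/dSERT4 day 0 pool, against 1.53-fold and 1.70-fold in these matched cells. This did not hold for every match: alrm, 2.53-fold higher in the dSERT-TMKO/WT day 0 pool over all non-neuronal cells, was 2.65-fold higher in cells matched to the CG11159/Ect3 cluster, 3.40-fold in those matched to the CG9377/CG16743 cluster and 9.70-fold in those matched to the Nplp3/CG7203 cluster. Gs2 was 5.66-fold higher in cells matched to the yellow-b/CG4250 cluster, with 3 cells in the dSERT16/dSERT4 day 0 pool, and Eaat1 ran the other way in cells matched to the scro/cv-2 cluster, with 232 CPM in the dSERT-TMKO/WT day 0 pool and 668 CPM in the dSERT16/dSERT4 day 0 pool. In cells matched to the CG11159/Ect3 cluster, axo had 6728 CPM in the dSERT-TMKO/WT day 0 pool and 6167 CPM in the dSERT16/dSERT4 day 0 pool, and nrv2 15618 and 16618 CPM. wrapper, which was lower over all non-neuronal cells of the dSERT-TMKO/WT day 0 pool, was higher there in the cells matched to the Obp99a/CG3270 cluster, with 2102 against 1082 CPM, and in those matched to the Nplp3/CG7203 cluster, with 965 against 463 CPM. Both are the poorer matches given above, so these values stand for their clusters only in part. The same limit holds for alrm in the Nplp3/CG7203 match. The make-up of the non-neuronal cells thus differed beside the levels, and its part in them was not tested further.

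**Figure D3:**
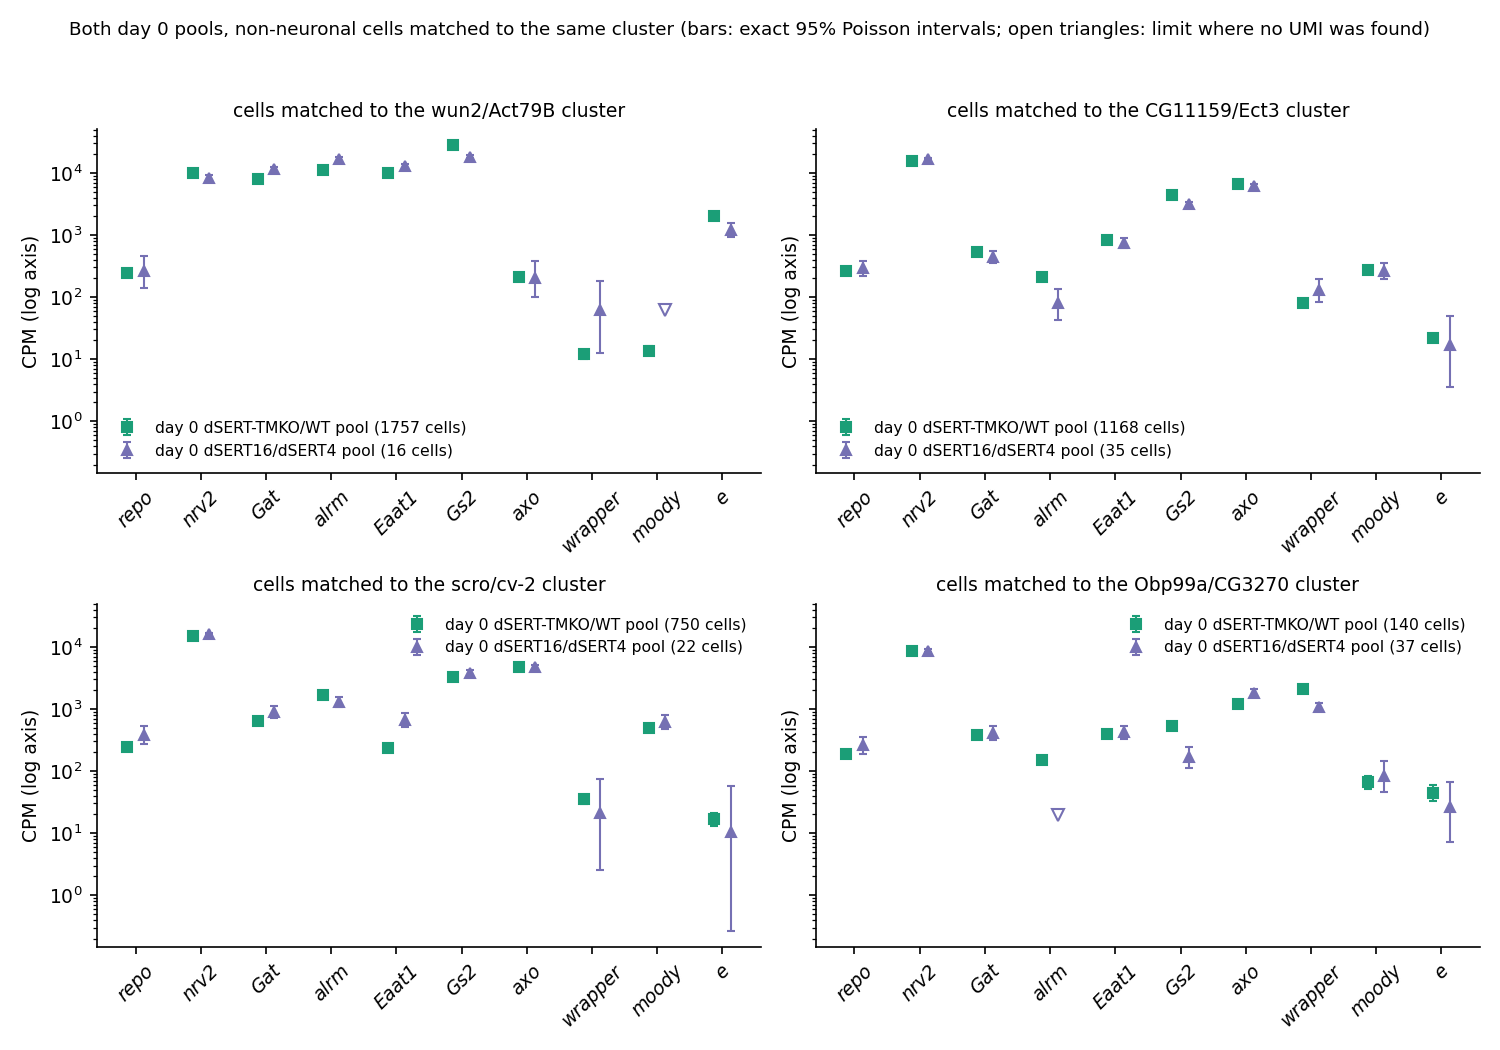
Level of the 10 genes (CPM, log axis) in non-neuronal cells of the dSERT-TMKO/WT day 0 pool (squares) and the dSERT16/dSERT4 day 0 pool (triangles) matched to the same cluster, 1 panel for each of 4 clusters, with 95% exact Poisson intervals that cover counting error only and open triangles at the limit where no UMI was found. wrapper is higher in the dSERT-TMKO/WT day 0 pool in the Obp99a/CG3270 panel (2102 against 1082 CPM), and Gat, alrm and Eaat1 are lower in it in the wun2/Act79B panel. The Obp99a/CG3270 panel holds 140 cells of the dSERT-TMKO/WT day 0 pool, where the cluster itself had 73.

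A low level of the 10 genes was present in neurons, and it followed the pool. The level in Kenyon-like cells was 1.26% (Gs2) to 4.03% (wrapper) of that in non-neuronal cells in the dSERT-TMKO/WT day 0 pool, where most cells were non-neuronal. In the dSERT16/dSERT4 day 0 pool it was 0.182% (Gat) to 1.30% (nrv2), and in the day 4 to 6 pool 0.0252% (Eaat1) to 0.661% (nrv2). The order of the pools is that of their non-neuronal shares, with 3 pools only. It also followed the removal of doublets: in the dSERT-TMKO/WT day 0 pool Eaat1 in Kenyon-like cells was 46.9 CPM after removal and 246 CPM without it. Some of the remaining RNA sat in a few cells: 1, 19 and 1 Kenyon-like cells had 5000 CPM or more over the 10 genes and held 4.79%, 18.9% and 0.772% of the class's UMIs of these genes. Without them the summed level in Kenyon-like cells was 74.6, 635 and 203 CPM. Among other neurons 0, 37 and 3 cells passed that level, and the 37 cells of the dSERT-TMKO/WT day 0 pool held 76.2% of the class's UMIs of the 10 genes, so that the level without them was 414 CPM, against 1542 CPM with them. The values without such cells were added after the data had been seen. By gene, nrv2 had 26.8, 577 and 252 CPM in other neurons, axo 2.06, 184 and 42.3 CPM and Gs2 0, 295 and 14.1 CPM. The other 7 genes had no UMI in the other neurons of the day 4 to 6 pool, 4.02 CPM (wrapper) to 174 CPM (Eaat1) in those of the dSERT-TMKO/WT day 0 pool and 0 CPM (e) to 26.0 CPM (wrapper) in those of the dSERT16/dSERT4 day 0 pool. Without the cells rich in the set these were 188 CPM for nrv2 and 39.3 CPM for axo in the dSERT-TMKO/WT day 0 pool, and 4.47 CPM for wrapper in the dSERT16/dSERT4 day 0 pool.

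The genes differed in how much of their RNA lay in neurons, and the order depended on the pool. In the day 4 to 6 pool 67.0% of the nrv2 UMIs and 58.6% of the axo UMIs lay in Kenyon-like cells, where moody had 6 of 12 UMIs and the other 7 genes had 7.37 to 47.4% of theirs. The level in Kenyon-like cells was 0.661% (0.595 to 0.735%) of the non-neuronal level for nrv2 and 0.450% (0.388 to 0.522%) for axo in that pool, against 0.0349% (0.0253 to 0.0470%) for Gs2, 0.119% (0.0712 to 0.193%) for Gat and 0.0252% (0.00986 to 0.0542%) for Eaat1. The intervals for nrv2 and axo do not meet those of Gs2, Gat or Eaat1, while wrapper (0.103 to 0.782%), moody (0.0848 to 1.19%) and e (0.00161 to 0.802%) rest on 9, 6 and 1 Kenyon-like UMIs and cannot be ordered. In the dSERT16/dSERT4 day 0 pool nrv2 was again the highest, at 1.30% (1.24 to 1.38%), but the interval of axo (0.514 to 0.669%) met that of Gs2 (0.402 to 0.549%) and lay within that of e (0.440 to 1.35%). In the dSERT-TMKO/WT day 0 pool wrapper, at 4.03% (3.11 to 5.13%), was above nrv2, at 2.77% (2.70 to 2.85%), and axo, at 2.01% (1.90 to 2.14%), while the interval of moody (2.31 to 3.57%) met that of nrv2.

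**Figure D4:**
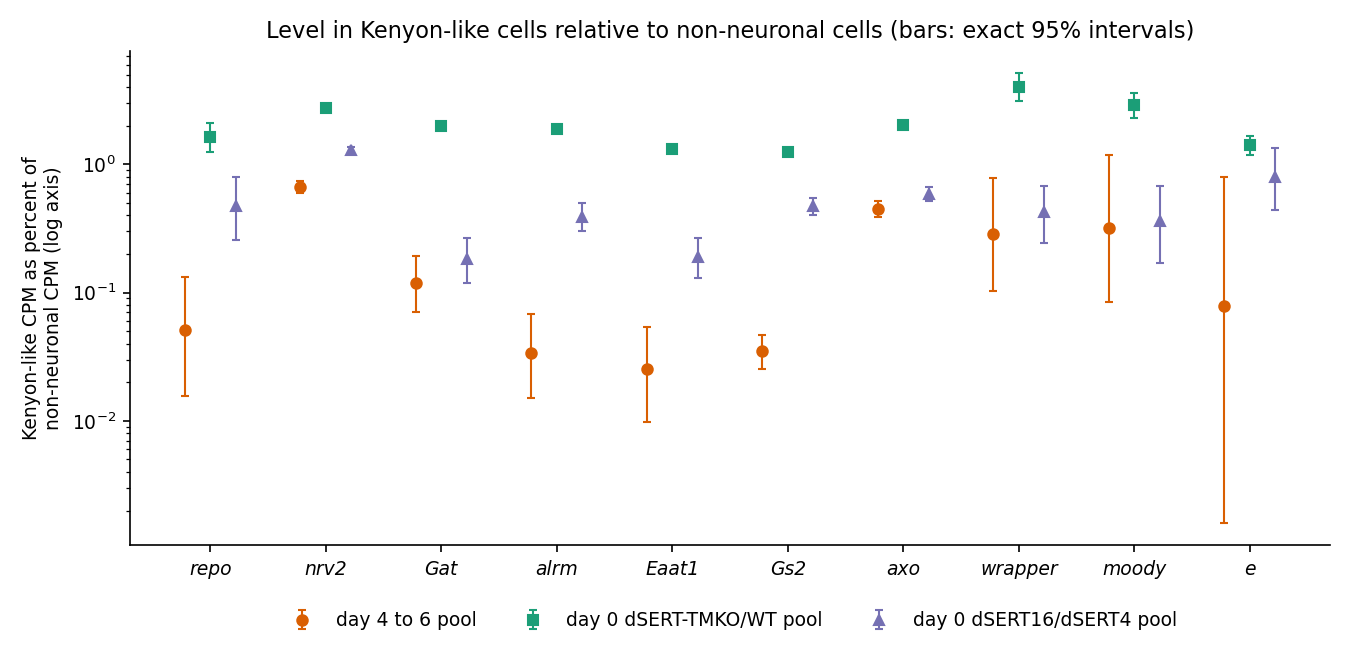
Level of each of the 10 genes in Kenyon-like cells as a percent of its level in non-neuronal cells of the same pool (log axis), with 95% exact intervals that cover counting error only. All 10 genes are highest in the dSERT-TMKO/WT day 0 pool, at 1.26 to 4.03%, and in the day 4 to 6 pool nrv2 (0.661%) and axo (0.450%) lie above Gs2, Gat and Eaat1, while the wide intervals of wrapper, moody and e overlap theirs.

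axo differed between kinds of Kenyon-like cell. In the day 4 to 6 pool it had 36.1 CPM (32.3 to 40.3) in the cluster led by CAH2 and GstD11 (1038 cells), against 4.76 to 8.91 CPM in the clusters led by Lgr1 and CrebA, by CG6006 and Tsp42En, by DAT and CG8641 and by kek5 and danr. The rn/CG43795 cluster had 21.1 CPM, and 3.38 CPM without the 1 cell rich in the 10 genes. A cluster led by mitochondrial transcripts had 35.5 CPM. In the dSERT16/dSERT4 day 0 pool axo had 28.6 CPM (23.5 to 34.5) in the bi/Arc1 cluster, 17.3 CPM (13.3 to 22.2) in the crb/SP1173 cluster and 2.40 CPM (0.291 to 8.69) in the CG8641/DAT cluster. In the dSERT-TMKO/WT day 0 pool it had 87.9 CPM (82.4 to 93.6) in the GstD11/CG34402 cluster, 45.4 CPM (38.5 to 53.2) in the crb/SP1173 cluster and 32.0 CPM (20.9 to 46.9) in the CG8641/DAT cluster. Without the cells rich in the 10 genes these were 50.4, 35.6 and 30.1 CPM, and the gap was smaller. The intervals of the crb/SP1173 and CG8641/DAT clusters overlap with those cells and also without them (29.5 to 42.6 and 19.3 to 44.8 CPM). The order of these clusters is thus not resolved in that pool.

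nrv2 varied less between the clusters, though in part in the same direction. It had 288 to 353 CPM over the 3 Kenyon-like clusters of the dSERT-TMKO/WT day 0 pool and 121 to 184 CPM over the 5 of the dSERT16/dSERT4 day 0 pool. In the day 4 to 6 pool it had 59.5 CPM (54.6 to 64.8) in the CAH2/GstD11 cluster. It had 36.6 CPM (30.6 to 43.5) in the CG6006/Tsp42En cluster and 32.3 CPM (26.7 to 38.8) in the Lgr1/CrebA cluster. Over all 7 clusters the values ran from 32.3 to 93.3 CPM. The highest of these, in the rn/CG43795 cluster, was 45.1 CPM without the 1 cell rich in the set, and the range was then 32.3 to 60.6 CPM. In the CG8641/DAT cluster of the dSERT16/dSERT4 day 0 pool nrv2 was thus at its highest and axo near its lowest, with nrv2 at 184 CPM and axo at 2.40 CPM.

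**Figure D5:**
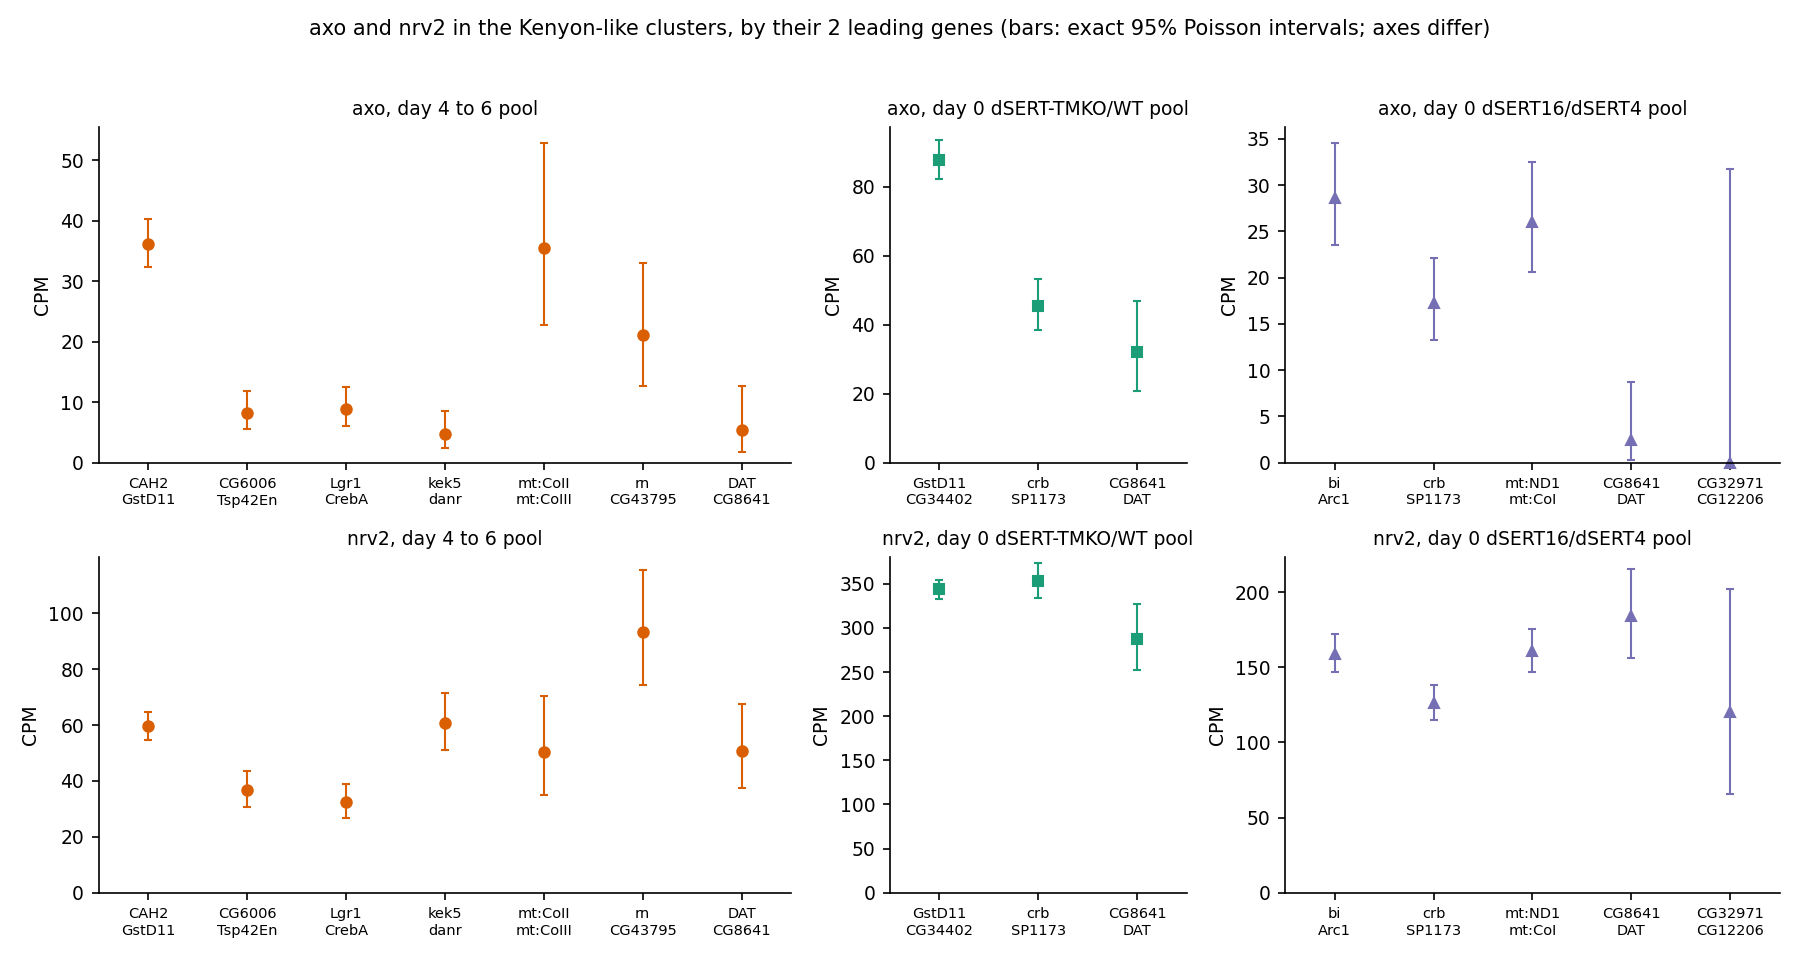
Level of axo and nrv2 (CPM) in each Kenyon-like cluster of the 3 pools, clusters named by their 2 leading genes, with 95% exact Poisson intervals that cover counting error only. axo is highest in the GstD11/CG34402 cluster of the dSERT-TMKO/WT day 0 pool (87.9 CPM). Within each pool axo is lower in the cluster led by DAT and CG8641 than in the CAH2/GstD11, GstD11/CG34402 or bi/Arc1 cluster. nrv2 is not lower there in every pool.

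Other genes of the same pathways were divided between the classes with less uniformity. Of 21 measured genes of transmitter handling, 3 were at least 4-fold higher and 1 at least 4-fold lower in non-neuronal than in Kenyon-like cells of the day 4 to 6 pool, 8 and 6 in the dSERT-TMKO/WT day 0 pool, and 5 and 5 in the dSERT16/dSERT4 day 0 pool, while 7, 3 and 6 had too few UMIs to be counted. Over all genes 11.4%, 18.5% and 15.7% were higher and 5.59%, 17.0% and 12.8% lower. Got1, a glutamate-oxaloacetate transaminase gene, was higher in all 3 pools, with 742, 682 and 370 CPM against 22.2, 39.1 and 28.4 CPM in Kenyon-like cells. So was Ssadh, which encodes the enzyme of the last step of GABA breakdown, with 409, 560 and 345 CPM against 32.5, 52.3 and 38.8 CPM. The transporter gene ine was also higher in all 3, with 409, 341 and 321 CPM against 0.192, 6.19 and 0.439 CPM. Gabat, which encodes the GABA transaminase that acts before Ssadh, had 560, 704 and 364 CPM against 144, 175 and 127 CPM, and passed 4-fold in the dSERT-TMKO/WT day 0 pool.

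Some relatives of the uptake genes had another pattern. Gs1, the other glutamine synthetase gene, had 0, 11.2 and 11.0 CPM in non-neuronal cells against 107, 136 and 168 CPM in Kenyon-like cells, the reverse of Gs2. Eaat2, a relative of Eaat1, had 197, 130 and 99.2 CPM against 93.7, 106 and 95.9 CPM. Gdh, which encodes glutamate dehydrogenase, was at least 4-fold lower in non-neuronal cells of each pool, with 0, 6.39 and 18.9 CPM against 288, 381 and 344 CPM. The amine transporter genes were divided. SerT was at least 4-fold higher in non-neuronal cells of the dSERT-TMKO/WT day 0 pool, at 1.54 CPM against 0.133 CPM in Kenyon-like cells. That Kenyon-like value rests on 2 UMIs, and the level was highest in other neurons, at 18.6 CPM. SerT had too few UMIs to be counted in the other pools. DAT was at least 4-fold lower in the non-neuronal cells of both day 0 pools, at 1.41 and 1.57 CPM against 39.8 and 51.7 CPM in Kenyon-like cells. In other neurons DAT had 204 and 184 CPM. Vmat, the vesicular monoamine transporter gene, was higher in the non-neuronal cells of both day 0 pools, at 46.5 and 18.9 CPM against 0.932 and 2.28 CPM in Kenyon-like cells, with 590.2 and 103 CPM in other neurons.

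Calls were also counted in 3 further lists. Over all genes 11.4%, 18.5% and 15.7% were higher and 5.59%, 17.0% and 12.8% lower. The lists are short, and their counts were not tested against these shares. Of 11 measured genes of the barrier and of septate junctions, 1, 3 and 3 were at least 4-fold higher in non-neuronal cells and 0, 1 and 0 lower, while 3, 0 and 1 had too few UMIs to be counted. Some calls of no 4-fold difference rest on few UMIs, as for Nrx-IV and Lac, which had none in non-neuronal cells of the day 4 to 6 pool. The regulator of G protein signalling loco, which acts with moody, was higher in each pool, with 121, 40.0 and 107 CPM against 0.336, 0.666 and 0.527 CPM. Of 5 genes of glial metabolism and transport, 1, 2 and 1 were higher and none was lower, while 1 had too few UMIs in each pool. Of 4 genes of the sodium pump and ion exchange, 0, 1 and 1 were higher and 2, 2 and 2 lower. Of the genes on these lists, 4 (BalaT, ncc69, cont and sln) had no row under these symbols and were not analysed here.

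The genes whose levels ran most closely with each of the 10 were sought over 33 groups of cells, the clusters of the 3 pools, among 4990 genes. repo ran with Mes2 (Pearson r = 0.995), cry (r = 0.990) and Rac2 (r = 0.987). nrv2 ran with Sod3 (r = 0.985), CG31706 and CG7888. Gat ran with CG1537 (r = 0.989), Eaat1 (r = 0.979) and Tsp5D, and Eaat1 with Gat, CG1537 and htl. alrm ran with CG43693 (r = 0.968), Adgf-D and Rh50, and Gs2 with CG9394 (r = 0.995), CAH1 and Adgf-D. axo ran with Ugt35B1 (r = 0.977), ClC-a and CG5404, wrapper with CG3270 (r = 0.962), EbpIII and CG42327, moody with CG32473 (r = 0.970), E(spl)mbeta-HLH and CG9691, and e with Cyp6a9 (r = 0.932), Tre1 and Fatp3. Among the 10 themselves Gat and Eaat1 were the closest pair and moody and e the least close (r = 0.319). Over the 9 non-neuronal clusters of the dSERT-TMKO/WT day 0 pool alone, where the contrast with neurons is absent, moody and e ran in opposite directions (r = -0.906), as did axo and e (r = -0.735), and Gat and Eaat1 had r = 0.743, below Eaat1 and e (r = 0.844). These correlations are descriptions: clusters of a pool share a library and its free RNA, and the contrast of neurons with other cells lies in all those over 33 groups.

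The 10 genes lie on 6 chromosome arms of the release 6 assembly. repo (3R, 18236192 to 18239602), alrm (3R, 25381065 to 25382781) and e (3R, 21229839 to 21237177) are on the right arm of the third chromosome and axo (3L, 4629604 to 4687317) on its left arm. nrv2 (2L, 6789770 to 6798862) and Eaat1 (2L, 9333567 to 9341925) are on 2L, wrapper (2R, 22379637 to 22382675) is on 2R, Gs2 (X, 11422832 to 11430197) and moody (X, 2044292 to 2050120) are on the X and Gat (4, 629691 to 635350) is on the fourth. alrm lies within Fur1 and axo overlaps CG32236 and CG13716, in each case on the same strand. The overlap could have affected the counts of alrm and axo, which was not tested. wrapper lies 2.02 Mb from SerT on the arm that carries the dSERT alleles, the only member on that arm.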

How the data were processed

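Sorted cells were profiled with 10x Genomics 3′ chemistry. The values used are raw UMI counts per gene and cell, which the authors deposited as 1 filtered matrix per pool, made with Cell Ranger 7.0.0 against release 6 of the fly genome (dm6 in the submitters' processing notes). No values of the other 4 deposited tables were used: they hold the authors' fold changes and p-values from DESeq2. No column of another series was met (0 columns).

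As in the study's filters, cells needed a minimum of 1000 UMIs, of which mitochondrial genes could give up to 20%. The study removed doublets by strain genotype, which could not be repeated, and Scrublet in scanpy 1.11.5 marked 26, 326 and 5 cells (0.868%, 3.68% and 0.152%) in the day 4 to 6, day 0 dSERT-TMKO/WT and dSERT16/dSERT4 day 0 pools, which were removed. Cells were clustered by pool (2000 variable genes without the 10 genes, 10 principal components, 20 neighbours, leidenalg 0.10.2 at resolution 0.3). Classes follow the marker rule in the report, with a Kenyon marker counted at 25% or more of its highest cluster, and were set after the data had been seen. A cluster was described by its leading genes, and rebuilt clusters can differ from the study's.

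UMIs were summed over a class and given as CPM of the class total, with exact Poisson or Clopper-Pearson 95% intervals (scipy 1.17.1). Where a class had no UMI, 3 counts over the class set the limit. Fold differences of 4 were counted without a test, since the study's test of counts summed by strain could not be repeated. Shares of cells were also computed on cells thinned to 1000 UMIs. Correlations used log2(CPM + 10) over clusters of at least 10 cells and genes reaching 50 CPM. The scripts were tested on simulated data. The genes named are the 10 members, the 3 genes most correlated with each and the genes of 4 lists (transmitter handling, sodium pump and ions, barrier and septate junctions, glial metabolism and transport). Members and lists were chosen with earlier results of these data known. The alternatives tried were other cell filters, no doublet removal, other clusterings, other class rules, other fold and count limits, and other thinning.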

Additional observations from a re-analysis of the deposited data

How the results depend on the processing

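The non-neuronal share of the dSERT-TMKO/WT day 0 pool was 68.9% with at least 2000 UMIs per cell, 68.4% with at most 10% mitochondrial UMIs and 69.0% with no doublets removed. The 10 genes then summed to 39719, 40009 and 39715 CPM in its non-neuronal cells, and without doublet removal these held 96.0% of the genes' UMIs. In the dSERT16/dSERT4 day 0 pool the sum was 24615 CPM with at least 2000 UMIs and 23583 CPM with at most 10% mitochondrial UMIs, where the share of UMIs was 84.3%. In the day 4 to 6 pool the share of UMIs was 46.7% with at least 2000 UMIs. Alternatives added after the data had been seen moved the dSERT16/dSERT4 day 0 pool most. With classes set by cluster alone its non-neuronal share was 2.67%, the sum 33349 CPM and the share of UMIs 70.6%, while wrapper fell to 83.9 CPM against 375 CPM and Gs2 was 5357 CPM against 3299 CPM. The share of UMIs was 81.4% at a neuron limit of 1000 CPM, and the sum was 23511 CPM at 4000 CPM. In the dSERT-TMKO/WT day 0 pool the share of UMIs was 98.7% by cluster alone and 98.5% at 1000 CPM. The number of genes at least 4-fold higher was 8 to 10 in the day 4 to 6 pool and 10 in the others under every alternative run. Classes by cluster alone were not run in the day 4 to 6 pool, where no cluster was low in neuron markers.

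Without doublet removal each of the 10 genes was over 1.5 times higher in Kenyon-like cells of the dSERT-TMKO/WT day 0 pool, with Eaat1 at 246 CPM against 46.9 CPM and nrv2 at 1017 CPM against 343 CPM. Levels of repo and wrapper in Kenyon-like cells of the day 4 to 6 pool rest on 5 and 9 UMIs, of which 4 and 6 lay in 1 cell. They were 0.240 and 0.432 CPM, against 0.0481 and 0.144 CPM without that cell. With at least 2000 UMIs, at most 10% mitochondrial UMIs, no doublets removed, 4000 variable genes or resolution 0.6, repo was 0 to 0.0508 CPM and wrapper 0.142 to 0.152 CPM, and repo was 0.432 CPM at a neuron limit of 1000 CPM. No paired analysis was possible because each group is 1 pooled library. The 18 non-neuronal cells of the day 4 to 6 pool hold 66035 UMIs, which limits the precision of their values.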
